A study of Homo sapiens with 12 samples.

Results

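The 10 genes described here encode the heat shock proteins of the cytosol and of the mitochondrial matrix that were chosen by name: HSPH1, HSPA4 and HSPA8 of the HSP110 and HSP70 families, the HSP90 genes HSP90AA1 and HSP90AB1, the J-domain genes DNAJB1 and DNAJA1, the mitochondrial chaperonin genes HSPD1 and HSPE1, and the small heat shock protein gene HSPB1. They are 10 of the 17958 genes compared. Each was read from the probe set that carried its symbol and no other, and each had exactly 1 such probe set. RNA came from 231BR cells, which descend from the human breast cancer line MDA-MB-231 and home to brain; the parent line lacks estrogen receptor alpha. All groups were of this 1 line, carrying EGFP. The cells received vehicle (OH) or 10 nM estradiol (E2), and were grown alone or together with mouse astrocytes, after which the EGFP cells were sorted at 24 h of co-culture. The 12 Affymetrix Human Gene ST arrays form 4 groups of 3, named below by treatment and by whether the cells were alone or with astrocytes. By its title, the series asks whether estrogen acts on 231BR cells indirectly, through astrocytes that have the receptor. A human array does not measure the astrocytes themselves, and whether the replicates came from separate cultures is not given in the sources used here, so the p-values reflect only how far these samples differ, which may be technical.

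Heat shock proteins are chaperones that keep other proteins folded, and tumour cells rely on them heavily. The HSP70 proteins bind unfolded stretches and spend ATP to release them, J-domain proteins deliver clients and start the ATP step, HSP110 proteins exchange the nucleotide, and HSP90 takes over kinases and steroid receptors that are nearly folded. In mitochondria the barrel HSP60 (HSPD1) and its lid HSP10 (HSPE1) fold imported proteins, and small heat shock proteins such as HSPB1 hold unfolded clients without ATP. Many of these genes are transcribed through heat shock factor 1, which binds heat shock elements, inverted repeats of the unit GAA.

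The heat shock element is what the promoters of several of these genes share, so the matching stretches are shown before the expression values. The motif searched was GAANNTTCNNGAA, 3 units in alternating orientation, on both strands, in the 300-base windows around annotated gene starts from RefSeq (GRCh38.p14). It was present in 172 of 35116 windows (0.49%), and in a window of 80 of the 13864 measured genes that had one (0.577%). Among the 10 genes, 5 had it: HSP90AA1, HSP90AB1, HSPA8, HSPD1 and DNAJA1. Capitals mark the matched bases, each sequence is written 5′ to 3′ on the strand of its gene, and where matches overlap the whole run is in capitals.
HSPD1, chr2:197500063-197500090, minus strand: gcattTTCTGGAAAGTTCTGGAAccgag
HSP90AA1, chr14:102087113-102087139, minus strand: agggttcTTCCGGAAGGTTCgggaggc
HSP90AB1, first match, chr6:44247771-44247797, plus strand: gagcaggTTCTGGAAGATTCatgggct
HSP90AB1, second match, chr6:44247824-44247850, plus strand: gagattgTTCTGGAAGCTTCtggattc
HSPA8, far match, chr11:123062347-123062373, minus strand: cgagcttGAAAGTTCCAGAAcgctgcg
HSPA8, near match, chr11:123062172-123062198, minus strand: gggccccTTCTGGAAGGTTCtaagata
DNAJA1, chr9:33025269-33025295, plus strand: ccgggcgGAACTTTCCAGAAcgctcgg

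The run in HSPD1 was the longest, 18 matched bases against 13 in each of the others. It lay inside the annotated HSPD1 gene, 228 to 245 bases before an inner start, and 294 bases from the start of HSPE1. HSPD1 and HSPE1 stand head to head on chromosome 2, with 104 bases between their outermost starts, so the run is near both genes although the HSPE1 window itself did not reach it. The matches of HSP90AA1, HSP90AB1 and HSPA8 also lay inside their annotated genes, before inner starts. For HSPA8, far and near count from such a start, at 123062136, and not from the outer start at 123062462. In DNAJA1 the match began at base 4, with the start itself counted as base 1. The shorter search for 2 units (GAANNTTC or TTCNNGAA, both strands, contained in the longer motif) matched 13.5% of windows and 15% of genes with a window. It added DNAJB1 and HSPB1, which made 7 of the 10 genes. HSPH1, HSPA4 and HSPE1 had neither motif in these windows. A match is a description of letters and does not show that a factor was bound.

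The arrays differed in their range of signal, and most of these genes had their lowest value on the array with the narrowest range. The SD of all log2 values on an array was 2.04 to 2.22 in vehicle alone and 2.12 to 2.20 in estradiol alone, against 1.82 to 2.04 in vehicle with astrocytes and 1.62 to 2.10 when estradiol was added to the co-culture. The narrowest range was that of replicate 2 of estradiol with astrocytes, which was the lowest of the 12 arrays for 9 of the 10 genes. The exception, HSPE1, was lowest on replicate 2 of vehicle with astrocytes. The part of this narrowing in any result below was not tested beyond the alternatives given with it. Within each treatment the SDs of the arrays with and without astrocytes did not overlap. A fit with the array SD as a covariate therefore cannot tell the range of signal apart from co-culture. As fixed points for reading the values, 2763 genes had a mean signal between those of the lowest and the highest of the 10 genes (7.03 to 10.77 on the log2 scale), and their figures are given beside those of the heat shock genes as genes of similar level.

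**Figure D1:**
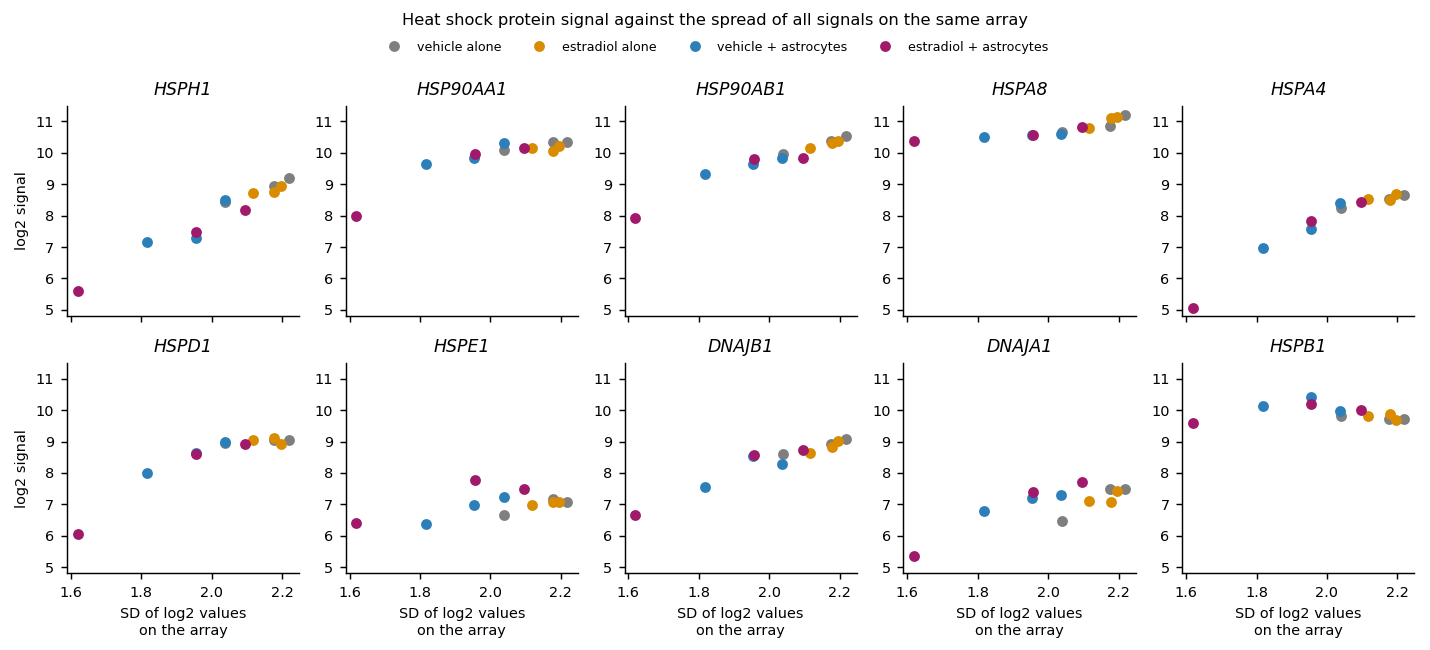
Log2 signal of each heat shock protein gene (vertical axis) against the SD of all log2 values on the same array (horizontal axis), 1 point per array, coloured by group. The array with an SD of 1.62 is the lowest point in 9 of the 10 panels, and HSPB1 is the panel in which the arrays with astrocytes are mostly higher than those without.

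Among the HSP110 and HSP70 genes, HSPH1 (probe set 7970864, chromosome 13, 31134973 to 31162388), a nucleotide exchange factor for HSP70, differed most with astrocytes. Its log2 signals were 9.20, 8.94 and 8.42 in vehicle alone and 8.93, 8.71 and 8.76 in estradiol alone. With astrocytes they were 8.49, 7.17 and 7.28 under vehicle and 8.19, 5.61 and 7.49 under estradiol. Under estradiol each array with astrocytes was below each array without, while under vehicle the highest array with astrocytes passed the lowest one without. The difference was −1.21 (SE 0.56) under vehicle and −1.70 (SE 0.56) under estradiol, which is 3.26-fold, and neither passed in limma after Benjamini-Hochberg adjustment over all genes (adjusted p = 0.179 and 0.0570).

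HSPA4 (probe set 8108015, chromosome 5, 133052013 to 133106449), another HSP110-type exchange factor, had a similar course with a wider spread. It measured 8.66, 8.53 and 8.23 in vehicle alone and 8.70, 8.52 and 8.51 in estradiol alone. In culture with astrocytes it measured 8.42, 6.98 and 7.58 under vehicle and 8.43, 5.07 and 7.83 under estradiol. The estradiol groups did not overlap, although replicate 1 with astrocytes came close to the arrays without, and the vehicle groups overlapped. The differences of −0.81 (SE 0.68) and −1.47 (SE 0.68) had adjusted p of 0.401 and 0.116 in limma.

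HSPA8 (probe set 7952325, chromosome 11, 123057489 to 123062462), the constitutive cytosolic HSP70, had small differences and small spread. Its signals were 11.20, 10.85 and 10.66 in vehicle alone and 10.60, 10.52 and 10.56 in vehicle with astrocytes, so these groups did not overlap. Under estradiol they were 11.16, 10.79 and 11.10 without astrocytes and 10.84, 10.39 and 10.57 with them, where 1 array of each group crossed. The differences were −0.35 (SE 0.21) and −0.42 (SE 0.21), with adjusted p of 0.265 and 0.135 in limma.

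**Figure D2:**
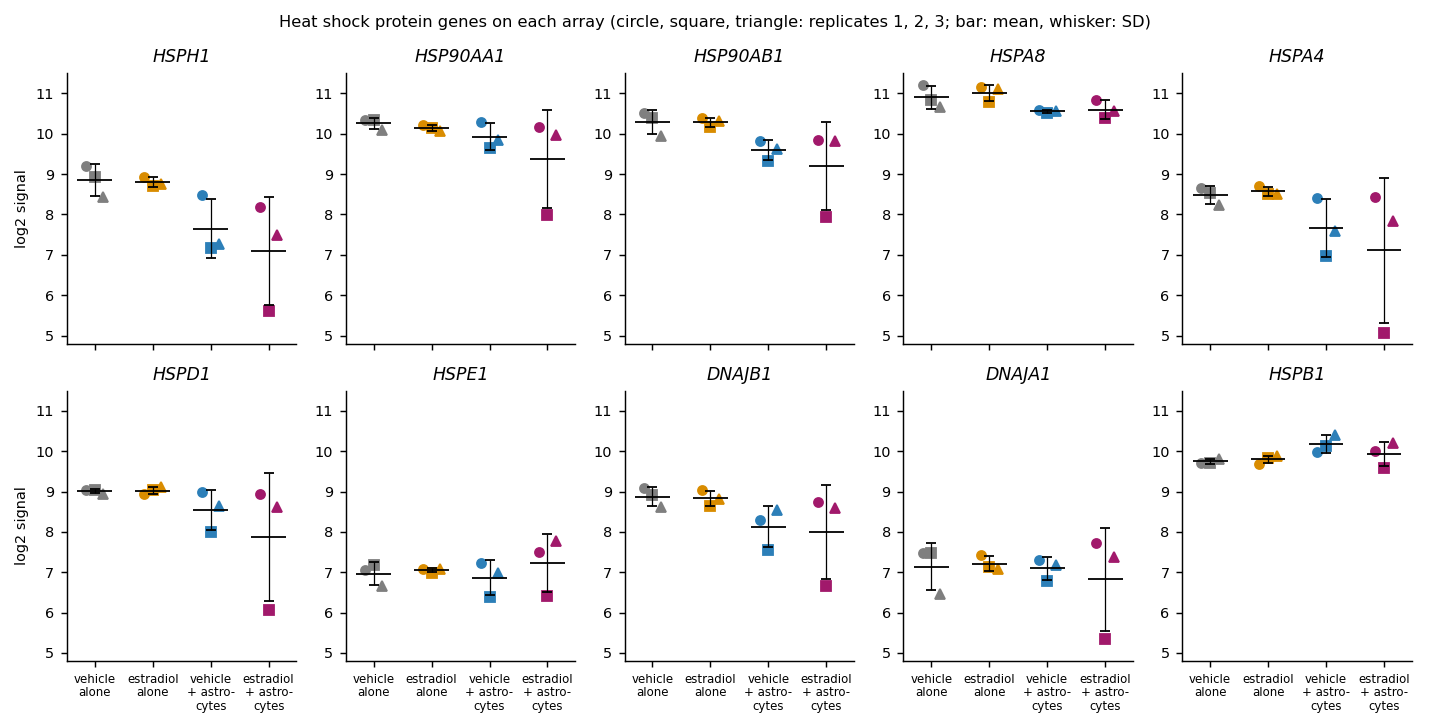
Log2 signal of the 10 heat shock protein genes on each of the 12 arrays by group. Symbols mark replicates 1 to 3, bars the group mean and whiskers the SD of 3 arrays. The square of estradiol with astrocytes is below its neighbours for all 10 genes, furthest for 7 of them. The gap is smaller for HSPE1 and smallest for HSPA8 and HSPB1.

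Of the HSP90 genes, HSP90AB1 had the larger estimated difference with astrocytes under both treatments. HSP90AB1 (probe set 8119993, chromosome 6, 44246194 to 44253883), the constitutive cytosolic form, measured 10.52, 10.39 and 9.95 in vehicle alone and 9.83, 9.34 and 9.63 in vehicle with astrocytes. Under estradiol it measured 10.38, 10.16 and 10.31 alone and 9.84, 7.93 and 9.81 with astrocytes. The 6 arrays with astrocytes were all below the 6 without, and HSP90AB1 was the only one of the 10 genes for which that held. Its differences were −0.69 (SE 0.42) under vehicle and −1.09 (SE 0.42) under estradiol, with adjusted p of 0.277 and 0.0805 in limma.

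HSP90AA1 (probe set 7981335, chromosome 14, 102080742 to 102139749), the stress-inducible form, overlapped between groups. Its signals were 10.34, 10.34 and 10.10 in vehicle alone, 10.21, 10.15 and 10.07 in estradiol alone and 10.30, 9.64 and 9.85 in vehicle with astrocytes. In estradiol with astrocytes they were 10.17, 7.99 and 9.97, so the group mean of 9.37 rested on replicate 2. The differences of −0.33 (SE 0.45) and −0.77 (SE 0.45) had adjusted p of 0.605 and 0.193 in limma.

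Taken on each array as HSP90AA1 minus HSP90AB1, a difference between probe sets whose shift between groups shows unequal change, the values were higher with astrocytes. Under vehicle it averaged −0.02 ± 0.17 (SD, n = 3) without astrocytes and 0.33 ± 0.13 (SD, n = 3) with them. The averages under estradiol were −0.14 ± 0.12 (SD, n = 3) alone and 0.18 ± 0.14 (SD, n = 3) with astrocytes. Within each treatment the arrays with and without astrocytes did not overlap, also after quantile normalization. Over both treatments they did overlap: replicate 3 of vehicle alone (0.15) was above replicate 2 of estradiol with astrocytes (0.05). This pair and those below were chosen after their values were seen, so no test is given. How often other pairs of genes separate in this way was not counted. HSPH1 minus HSPA4, taken in the same way, averaged 0.38 and −0.01 under vehicle without and with astrocytes, with no overlap. Under estradiol it averaged 0.22 and −0.01 with overlap, and replicate 2 with astrocytes (0.54) was the highest of the 12 arrays.

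Of the J-domain genes, DNAJB1 (probe set 8034837, chromosome 19, 14514769 to 14560391), a stress-inducible partner of HSP70, measured 9.08, 8.91 and 8.62 in vehicle alone against 8.29, 7.56 and 8.54 in vehicle with astrocytes. In estradiol alone it measured 9.03, 8.64 and 8.82, and with astrocytes 8.74, 6.65 and 8.58. The vehicle groups did not overlap, and under estradiol replicate 1 with astrocytes lay inside the range of the group without. The differences were −0.74 (SE 0.47) and −0.84 (SE 0.47), with adjusted p of 0.287 and 0.173 in limma.

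DNAJA1 (probe set 8154765, chromosome 9, 33025273 to 33039907), a farnesylated J-domain protein, showed the least difference under vehicle. Its signals ran from 6.46 to 7.48 in vehicle alone, 7.08 to 7.42 in estradiol alone, 6.78 to 7.31 in vehicle with astrocytes and 5.36 to 7.73 in estradiol with astrocytes. The last group held both the lowest and the highest of the 12 arrays. The differences of −0.05 (SE 0.51) and −0.38 (SE 0.51) had adjusted p of 0.9502 and 0.547 in limma. Under vehicle DNAJB1 minus DNAJA1 averaged 1.73 ± 0.38 (SD, n = 3) without astrocytes and 1.03 ± 0.29 (SD, n = 3) with them. Under estradiol it averaged 1.62 ± 0.11 (SD, n = 3) and 1.17 ± 0.14 (SD, n = 3). The 6 arrays with astrocytes were all below the 6 without, but after quantile normalization the estradiol groups overlapped.

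The mitochondrial chaperonin genes took different values relative to each other in the co-cultures. HSPD1 (probe set 8058052, chromosome 2, 197486584 to 197500274) was steady without astrocytes, at 9.04, 9.05 and 8.95 under vehicle and 8.93, 9.04 and 9.10 under estradiol. With astrocytes its signals were 8.98, 8.003 and 8.64 under vehicle and 8.93, 6.06 and 8.62 under estradiol. In both co-culture groups replicate 1 stayed within or at the edge of the range without astrocytes and replicate 2 was lowest. The differences of −0.47 (SE 0.58) and −1.15 (SE 0.58) had adjusted p of 0.563 and 0.141 in limma.

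HSPE1 (probe set 8047223, chromosome 2, 197500379 to 197503449) measured 7.07, 7.18 and 6.66 in vehicle alone and 7.08, 6.99 and 7.07 in estradiol alone. It measured 7.23, 6.39 and 6.99 in vehicle with astrocytes and 7.49, 6.41 and 7.76 in estradiol with astrocytes. Replicates 1 and 3 of the last group were the 2 highest of the 12 arrays, and the groups overlapped under both treatments. The differences were −0.10 (SE 0.34) under vehicle and 0.18 (SE 0.34) under estradiol, with adjusted p of 0.838 and 0.674 in limma.

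Because these neighbours supply the barrel and the lid of 1 machine, HSPD1 minus HSPE1 was taken on each array. It was 1.97, 1.87 and 2.29 in vehicle alone and 1.84, 2.05 and 2.03 in estradiol alone, against 1.75, 1.62 and 1.65 in vehicle with astrocytes and 1.44, −0.35 and 0.86 in estradiol with astrocytes. The 6 arrays with astrocytes were all below the 6 without, also after quantile normalization. Among the co-culture arrays the 3 with estradiol were below the 3 with vehicle. Like the other pairs, this one was chosen after its values were seen, and no test is given. Its lowest value, −0.35, was on the array with the narrowest range (SD 1.62). The 2 genes differ in mean signal (8.61 for HSPD1 and 7.03 for HSPE1), and the part of the array range in this difference was not tested. With the array SD as a covariate the change under vehicle was higher for HSPD1 than for HSPE1, the reverse of the deposited values. Over both treatments it stayed lower for HSPD1.

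HSPB1 (probe set 8133721, chromosome 7, 76302673 to 76304292), the small heat shock protein HSP27, had higher means with astrocytes under both treatments. Its signals were 9.72, 9.71 and 9.82 in vehicle alone and 9.98, 10.13 and 10.41 in vehicle with astrocytes, with no overlap. Under estradiol they were 9.69, 9.82 and 9.88 alone and 10.01, 9.59 and 10.19 with astrocytes, where replicate 2 was the lowest of the 12 arrays and the other 2 were above the group without. The differences were 0.42 (SE 0.20) and 0.13 (SE 0.20), with adjusted p of 0.188 and 0.597 in limma.

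Under vehicle none of the 10 genes passed in limma and none had an unadjusted p under 0.05, in a comparison that called 0.0557% of all genes. Unadjusted, 5073 of 17958 genes and 459 of 2763 genes of similar level were under 0.05. Lower without overlap were 3 of the 10 (HSP90AB1, HSPA8 and DNAJB1), against 18.4% of all genes and 31.2% of genes of similar level. Higher without overlap was HSPB1, against 23.4% and 8.94%. The log2 change was below 0 for 9 of the 10, against 75.4% of genes of similar level, and the median was −0.41 against −0.39 in those genes and 0.06 in all genes. The count of lower genes was close to that of genes of similar level. Without replicate 2 of estradiol with astrocytes, which enters only through the shared spread, HSPH1, HSP90AB1 and DNAJB1 passed as lower, in a fit that called 6107 genes in place of 10 and 29.5% of genes of similar level as lower.

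Under estradiol none of the 10 genes passed either, in a comparison that called 13.2% of all genes, 8.15% lower and 5.03% higher, and 8.03% of genes of similar level as lower. These shares depended on single arrays: of 17958 genes 2366 were called, against 3, 3 and 5 without replicate 1, 2 or 3 of estradiol alone, 13 and 10 without replicate 1 or 2 of vehicle alone, and 3 without replicate 3 of estradiol with astrocytes. Without replicate 2 of estradiol with astrocytes 416 genes were called, without replicate 1 of that group 9222, and in a fit of only the compared groups 0. HSPH1 and HSP90AB1 had an unadjusted p under 0.05, as did 7880 of 17958 genes and 1013 of 2763 genes of similar level. Lower without overlap were 3 of the 10 (HSPH1, HSP90AB1 and HSPA4), against 23.9% of all genes and 38.8% of genes of similar level. The change was below 0 for 8 of the 10, against 85.6% of genes of similar level, with medians of −0.80 against −0.75 and 0.07 in all genes. Each of the 3 arrays of estradiol with astrocytes moved these values. Without replicate 3 none of the 10 passed and the median was −1.10, against −0.97 in genes of similar level. Without replicate 1 of estradiol with astrocytes 5 of the 10 genes passed as lower, against 50.2% of genes of similar level in that fit, and without replicate 2 none passed and the median was −0.21, against −0.14 in genes of similar level.

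**Figure D3:**
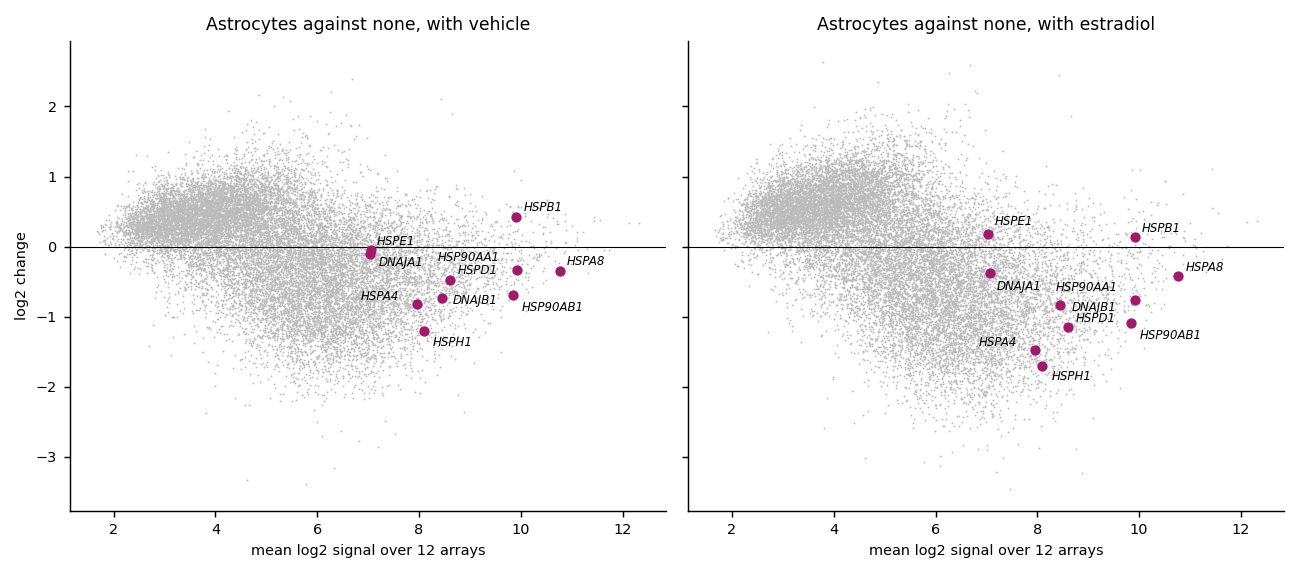
Log2 change with astrocytes (vertical axis) of every gene against its mean log2 signal over 12 arrays (horizontal axis), under vehicle and under estradiol, with the 10 heat shock protein genes in colour. Genes with a low signal are mostly above 0 and genes in the range of the heat shock protein genes mostly below it, and HSPB1 is above 0 in both panels.

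Over both treatments together, 6 arrays with astrocytes against 6 without, 3 of the 10 genes fell in limma. The log2 change was −1.45 for HSPH1 (SE 0.39, adjusted p = 0.0151), −0.89 for HSP90AB1 (SE 0.30, adjusted p = 0.0324) and −0.38 for HSPA8 (SE 0.15, adjusted p = 0.0490). These are 2.74-fold, 1.85-fold and 1.30-fold. This comparison called 47.5% of all genes, 23% lower and 24.5% higher, and 31.2% of genes of similar level as lower, so 3 of 10 was near the share among genes of similar level. Lower without overlap was 1 of the 10, HSP90AB1, against 11.3% of all genes and 19.3% of genes of similar level. The change was below 0 for 8 of the 10, against 81.7% of genes of similar level. HSPA4 (−1.14) and DNAJB1 (−0.79) had an adjusted p of 0.0663 each, HSPD1 (−0.81) 0.113, HSPB1 (0.28) 0.118, HSP90AA1 (−0.55) 0.162, DNAJA1 (−0.22) 0.617 and HSPE1 (0.04) 0.896.

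The HSPH1 call held in each of the 12 fits that left out 1 array, with a change from −1.73 to −1.08. HSP90AB1 passed in 5 of those 12 fits and HSPA8 in 3. The count of genes that passed was 1 without replicate 1 or 2 of vehicle alone, replicate 1 or 3 of estradiol alone, or replicate 2 or 3 of vehicle with astrocytes, and 7 without replicate 1 of estradiol with astrocytes, where 53.2% of genes of similar level were called lower. Without the second array of both co-culture groups, HSPH1 (−0.96) and HSP90AB1 (−0.51) passed as lower and HSPB1 (0.37) and HSPE1 (0.36) as higher. That fit called 21.6% of all genes lower and 23.2% higher, and 31.8% of genes of similar level lower. After quantile normalization HSPH1, HSP90AB1 and HSPA8 passed as lower and HSPB1 and HSPE1 as higher. There 16.5% of all genes were called lower and 18.7% higher. With the array SD in the model as a covariate none passed as lower, and DNAJA1 (0.95) and HSPE1 (0.70) passed as higher. In that fit 5.82% of all genes were called lower and 8.57% higher. The median of the 10 genes was then 0.42 against 0.32 in genes of similar level. The median of the 10 genes thus stayed below 0 under quantile normalization, at −0.37 against −0.20 in genes of similar level. Under centring of each array it was −0.83 against −0.74 in those genes. It turned with the array SD as a covariate, as did the median of those genes. That covariate is confounded with co-culture, so the turned values cannot be read as changes free of the array range.

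**Figure D4:**
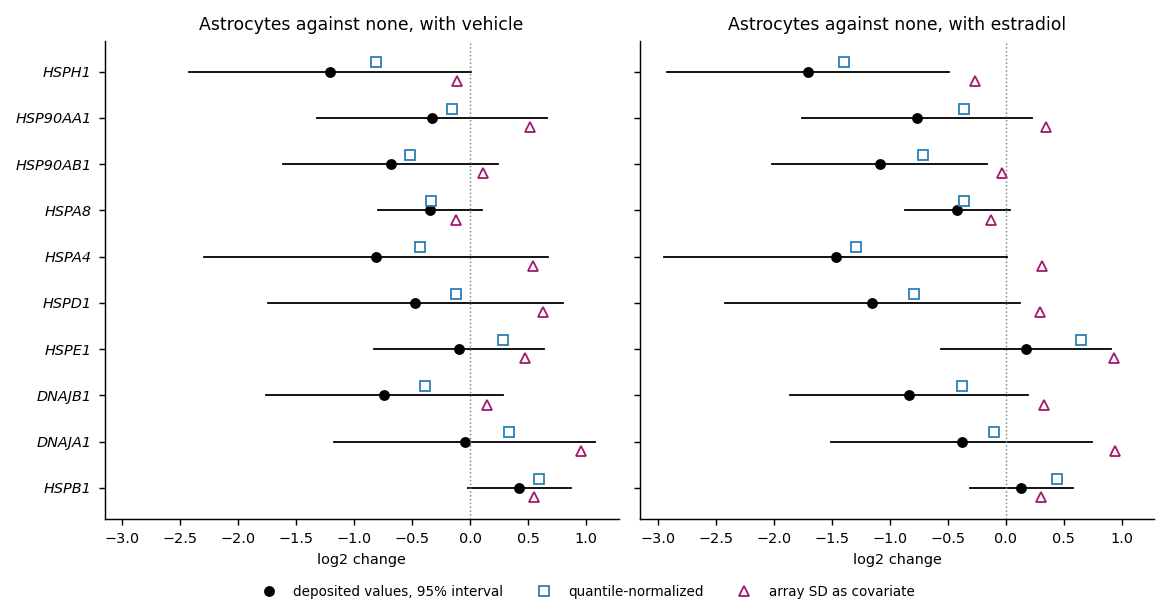
Log2 change with astrocytes of each heat shock protein gene under vehicle and under estradiol. Black points and lines are the estimates from the deposited values with 95% intervals, squares the estimates after quantile normalization, and triangles those with the array SD as a covariate, which lie to the right of the black point for each of the 10 genes in both panels.

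Estradiol was compared with vehicle next, and none of the 10 genes passed. Without astrocytes the changes with estradiol ran from −0.12 (HSP90AA1) to 0.11 (HSPA8), and 4 of the 10 were below 0 against 26.9% of genes of similar level. None passed in limma, where 0% of all genes were called and 1 of 17958 had an unadjusted p under 0.05. The 95% interval of the change was −1.27 to 1.16 for HSPH1, −0.93 to 0.93 for HSP90AB1, −0.34 to 0.57 for HSPA8 and −0.39 to 0.49 for HSPB1, so changes of about that size were not detectable in this fit. Its spread is shared by all 4 groups, the co-culture arrays included. In vehicle alone and estradiol alone the SDs were 0.39 and 0.12 for HSPH1 and 0.06 and 0.09 for HSPB1.

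With astrocytes present the changes with estradiol ran from −0.67 (HSPD1) to 0.35 (HSPE1). None of the 10 passed, 0% of all genes were called in limma, and 142 genes had an unadjusted p under 0.05. The change was below 0 for 8 of the 10 and for 87.5% of genes of similar level. Replicate 2 of estradiol with astrocytes set this direction: without it the change of HSPD1 was 0.24, and 7 of the 10 genes changed sign. When the co-culture arrays were fitted as 3 pairs by replicate number, again none of the 10 and no other gene passed, and 162 genes had an unadjusted p under 0.05.

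The difference between the astrocyte changes under estradiol and under vehicle, the interaction, ran from −0.68 (HSPD1) to 0.27 (HSPE1). None of the 10 passed, 0% of all genes were called in limma, and 31 genes had an unadjusted p under 0.05. It was below 0 for 9 of the 10, against 91.3% of genes of similar level. For HSPH1 it was −0.50, with a 95% interval from −2.22 to 1.22, and for HSPB1 −0.29, from −0.92 to 0.33. Without replicate 2 of estradiol with astrocytes the value for HSPD1 was 0.23 and that for HSPH1 0.25, and 8 of the 10 genes changed sign.

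The other chaperone genes were counted by lists drawn up by family, with none passing under vehicle. The 6 calls under estradiol named below, in a comparison that called 8.15% of all genes lower, rested on single arrays like the comparison as a whole. Each passed in 2 to 5 of the 12 fits that left out 1 array and in none that left out an estradiol alone array, and in a fit of only the compared groups their adjusted p in limma was 0.116 to 0.132. Of 17 measured HSP90 co-chaperones and paralogs, 1 fell under estradiol, AHSA2P (−1.28, adjusted p = 0.0364 in limma), a pseudogene related to the activator of the HSP90 ATPase. PPID, an HSP90-binding cyclophilin (−1.65), CACYBP (−1.39) and NUDC (−1.10) did not pass. The list median was −0.66 under vehicle and −0.56 under estradiol, and 0.29 and 0.32 with the array SD as a covariate.

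Of 18 other J-domain genes, 3 fell under estradiol. DNAJC13, which acts on endosomes, measured 7.52, 7.04 and 7.35 in estradiol alone and 6.60, 4.69 and 5.52 with astrocytes, a change of −1.70 (adjusted p = 0.0445 in limma). DNAJC6, the clathrin-uncoating auxilin (−0.84), and DNAJC9, a histone chaperone (−0.82), had adjusted p of 0.0464 and 0.0405. DNAJB6 (−1.31), which keeps polyglutamine proteins from aggregating, DNAJC21 (−1.24) and DNAJC2 (−0.81) did not pass.

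In mitochondria, 2 of 9 quality control genes fell under estradiol, CLPX (−1.20, adjusted p = 0.0484 in limma), the unfoldase of the ClpXP protease, and SPG7 (−1.24, adjusted p = 0.0356), a subunit of the m-AAA protease. YME1L1 (−1.95), AFG3L2 (−0.95) and the matrix protease LONP1 (−0.69) did not pass. HSPA9, the mitochondrial HSP70 that passes imported clients on to HSPD1, measured 9.79, 9.43 and 9.60 in estradiol alone and 9.11, 6.07 and 8.72 with astrocytes. Its groups did not overlap, and its change of −1.64 had an adjusted p of 0.0738. GRPEL1, the exchange factor of HSPA9, had a change of −1.08 and an adjusted p of 0.102.

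No member passed under either treatment in 5 lists. These were 10 inducible and other HSP70 genes (HSPA13 −1.75 and HSPA12B 0.87 under estradiol), 10 HSP70 co-chaperones (BAG5 −1.14, HSPBP1 0.53), 18 genes of the cytosolic chaperonin TRiC and prefoldin (CCT6A −1.04, CCT5 −1.22, PDCL3 −1.65), 9 small heat shock proteins and 2 heat shock factors. HSF1, the main factor of the heat shock response, had changes of 0.14 under vehicle and 0.08 under estradiol, and HSF5 0.54 and 0.26. Medians under estradiol were −0.30 for the HSP70 list, −0.63 for HSP70 co-chaperones, −0.74 for J-domain genes, −0.79 for TRiC and prefoldin and −0.69 for mitochondrial quality control, and each of these 5 medians was above 0 with the array SD as a covariate.

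The small heat shock proteins other than HSPB1 had the highest medians, 0.57 under vehicle and 0.76 under estradiol, and 0.16 and 0.28 with the array SD as a covariate. HSPB6, a heat shock protein of muscle, measured 3.65, 3.98 and 3.60 in estradiol alone and 4.16, 5.13 and 4.56 with astrocytes. CRYAA, a lens crystallin, measured 4.87, 5.47 and 5.26 against 5.70, 7.13 and 6.29, and HSPB9, a gene of the testis, had a change of 0.88. Their groups did not overlap, and their adjusted p under estradiol was 0.0514, 0.0525 and 0.0541 in limma. Over both treatments, where 24.5% of all genes were called higher and 23% lower, 5 of these 9 rose. In that comparison 5 HSP90 co-chaperones, 5 mitochondrial quality control genes, 2 HSP70 co-chaperones and 1 gene of TRiC and prefoldin fell. Of the J-domain genes 6 fell and 1 rose, and of the other HSP70 genes 4 fell and 2 rose. Genes below the median level of 5.11, where HSPB6 and HSPB9 lie, had a median change of 0.33 under vehicle and 0.46 under estradiol.

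**Figure D5:**
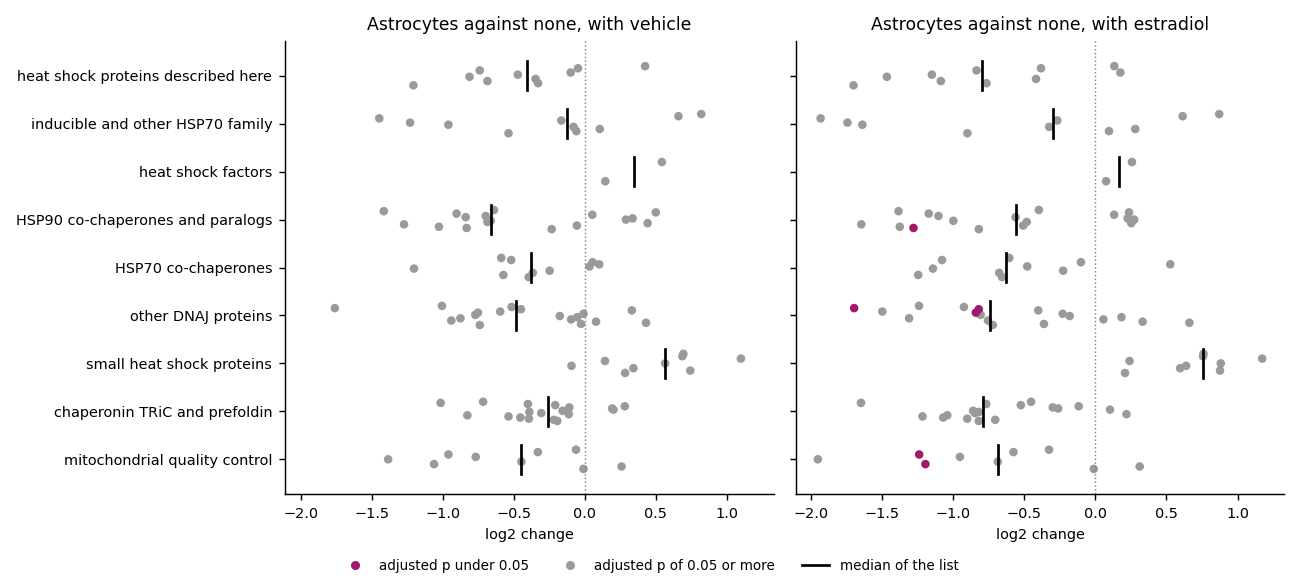
Log2 change with astrocytes of each measured gene in the heat shock protein group and in 8 other chaperone lists, under vehicle and under estradiol, with black bars at the list medians. Coloured points passed at an adjusted p under 0.05 in limma, 6 genes in all, each under estradiol and each below 0.

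Over the 12 arrays the heat shock genes varied together, apart from 2. The Pearson correlation of a gene with the mean of the other 9 was highest for HSPA4 (0.986), HSPD1 (0.972), HSP90AB1 (0.971) and HSP90AA1 (0.970). It was 0.959 for DNAJB1, 0.905 for HSPH1, 0.877 for DNAJA1 and 0.695 for HSPA8, against 0.597 for HSPE1 and 0.05 for HSPB1. These points share their arrays and thus the array range. The 5 other genes most like the mean of all 10 were UTP23 (0.997), PAPOLA (0.997), MAPK9 (0.996), CDC5L (0.996) and TARS1 (0.995), and 2686 of 17948 other genes reached 0.9. The pattern was a common one on these arrays.

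The changes with astrocytes were also set beside the promoter motif, as a description with no test. The 5 genes with the motif of 3 units had a median change with astrocytes of −0.35 under vehicle and −0.77 under estradiol, and the 5 without had −0.74 and −0.84. HSPH1 and HSPA4, which had no match, lay at the low end of the group, and HSPE1 and HSPB1, also without the motif of 3 units, at its high end.

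The identity of the sorted cells was read from markers. The 8 markers of 231BR cells, among them VIM, CD44 and EGFR, had mean log2 signals of 9.90 to 10.26 per array in vehicle alone and 8.85 to 10.20 in estradiol with astrocytes. ESR1, the estrogen receptor alpha gene, was between 3.31 and 3.90 without astrocytes and between 3.63 and 5.09 with them. The 12 astrocyte markers had mean signals of 4.93 to 5.14 in vehicle alone, 4.90 to 5.09 in estradiol alone, 5.04 to 5.17 in vehicle with astrocytes and 5.09 to 5.27 in estradiol with astrocytes. The log2 of their summed signal was 9.28 to 9.35, 9.33 to 9.44, 9.09 to 9.57 and 9.11 to 9.46 in the same order. Over both treatments 7 of the 12 had a change above 0 and 5 below, and limma called 5 higher and 2 lower. That comparison called 24.5% of all genes higher and 23% lower. GFAP, the classical astrocyte filament gene, was 4.72 to 5.49 without astrocytes and 5.43 to 6.70 with them. Other markers of the list went the opposite way: SLC1A3 was 6.27 to 6.62 without and 5.11 to 6.16 with, and GJA1 6.07 to 6.49 without and 5.08 to 6.15 with. For 11 microglia and macrophage markers the summed values were 8.82 to 8.93, 8.84 to 8.96, 8.83 to 9.13 and 8.87 to 9.03. Their mean log2 signals were 3.66 to 4.08 and 3.74 to 3.88 without astrocytes and 4.13 to 4.45 and 3.97 to 5.10 with them. Over both treatments 10 of the 11 were above 0, with a median change of 0.50, and 5 were called higher, against 24.5% of all genes. Most of the 11 lie below the median level of 5.11, and genes below that level had a median change of 0.40 in this comparison. No marker is at 0 on this scale, mouse RNA was not measured directly, and its part in the results was not tested. Fewer human cells and less RNA per cell cannot be told apart in such samples.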

How the data were processed

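RNA of 12 samples was measured on single-colour Affymetrix Human Gene ST arrays. The deposited values are log2 signals, and the authors' processing is given by the submitters' processing notes as RMA and Partek, without versions or order; the annotation build is not given in the sources used here. The file held 33297 probe sets. The probe table named 1 gene for 19181, several for 2055, and 12061 are not in it. Where a gene had several probe sets, the one with the highest mean was used. No filter on low values was applied. Arrays have no read depth, so their number limits the precision.

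The comparisons used limma 3.58.1 under R 4.3.3 (lmFit with 1 mean per group over 12 arrays, contrasts.fit, eBayes), two-sided, with Benjamini-Hochberg adjustment over 17958 genes and a threshold of 0.05. An exact test of 3 against 3 arrays cannot give a p below 0.1. The procedure was also run on simulated data with independent noise for each gene and array. Such data lack the differences in range between these arrays, so that run cannot show that the calls here are sound. Groups are said not to overlap when each array of one lay beyond each array of the other.

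The 10 genes, the lists, the rule for named genes and the alternatives were chosen with earlier results of these data known. The rule named the 10 genes, from each list those past the threshold and up to 3 more with the smallest p under estradiol, and the 5 genes most like the mean. Some listed genes, such as HSPA1B, HSF2, CDC37 and FKBP5, were not analysed here because no probe set with 1 symbol carried them.

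Alternatives were the replicate block, the array SD as covariate, quantile normalization, centring, level filters, other handling of probe sets, other variance moderation, arrayWeights, subsets of arrays and a threshold of 0.1. Same-number arrays deviated together most between the co-culture groups (r = 0.789, 0.756 and 0.214 across genes), which were also fitted as pairs. Between estradiol alone and vehicle with astrocytes r was 0.512, 0.457 and 0.030. Each of the other combinations of groups held a negative r. What a replicate number marks is not given in the sources used here, and the pairing of the co-culture groups was added after seeing the data. Processed pseudogene copies exist for several of these genes, and cross-hybridization was not tested.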

Additional observations from a re-analysis of the deposited data

How the results depend on the processing

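The counts of the 10 genes past the threshold changed as follows, and shares in parentheses are those of all genes called in the same fit. The replicate block takes the replicate number as a pairing over all groups. With it 2 passed under estradiol (37.3%), HSPH1 and HSP90AB1, both lower, and 5 over both treatments (57.2%). No other count changed. Outside the co-culture groups the correlation of same-number arrays differed in sign between replicates for most combinations of groups. With the array SD as covariate 1 passed under vehicle (6.49%) and 2 under estradiol (2.61%), all higher. With arrayWeights, whose fit stopped before its convergence tolerance, 7 passed under vehicle (69.3%), 9 under estradiol (82.3%), 1 for estradiol with astrocytes (6.67%), 1 for the interaction (3.61%) and 9 over both (83.5%). Over both treatments 5 passed after quantile normalization (35.3%), 1 when only genes of similar level were tested (20.9%), and 5 at a threshold of 0.1 (61.7%), which gave 2 under estradiol (39.8%). It was 2 without variance moderation, where HSP90AB1 was lost, and 2 with trend and robust moderation and among genes above the median level, where HSPA8 was lost. With 1 array left out the counts ran from 0 to 3 under vehicle, 0 to 5 under estradiol, 1 to 7 over both, and 0 to 0 for the 3 others.

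Of the changes with astrocytes of the 10 genes, of the lowest and highest in the 3 other comparisons, and of the interaction of HSPH1 and HSPB1, 48 under an alternative changed sign, 49 passed newly, 24 no longer passed and 817 kept both. Over all 10 genes, sign changes numbered 19 of 250 values for estradiol alone, 21 of 260 for estradiol in co-culture and 28 of 240 for the interaction. Without replicate 2 of estradiol with astrocytes 7 of the 10 genes changed sign for estradiol in co-culture and 8 for the interaction. With the array SD as covariate the changes under vehicle were 0.52 (HSP90AA1), 0.11 (HSP90AB1), 0.54 (HSPA4), 0.63 (HSPD1), 0.47 (HSPE1), 0.15 (DNAJB1) and 0.96 (DNAJA1). Under estradiol they were 0.35 (HSP90AA1), 0.31 (HSPA4), 0.29 (HSPD1), 0.33 (DNAJB1) and 0.94 (DNAJA1), and over both 0.43 (HSP90AA1), 0.038 (HSP90AB1), 0.42 (HSPA4), 0.46 (HSPD1), 0.24 (DNAJB1) and 0.95 (DNAJA1). Quantile normalization gave 0.28 (HSPE1) and 0.34 (DNAJA1) under vehicle and 0.12 (DNAJA1) over both. Centring moved the median of all genes from 0.06 to −0.09 under vehicle and from 0.07 to −0.11 under estradiol, and gave −0.0042 (HSPE1) and −0.047 (HSPB1) under estradiol and −0.13 (HSPE1) over both. Without both second co-culture arrays HSPE1 was 0.14 and DNAJA1 0.11 under vehicle, and DNAJA1 0.35 under estradiol and 0.23 over both. ArrayWeights gave 0.24 for DNAJA1 under estradiol and 0.0065 for HSPD1 with estradiol in co-culture. With 1 array left out, HSPE1 ran from −0.28 to 0.14 under vehicle, −0.10 to 0.58 under estradiol and −0.10 to 0.24 over both, and DNAJA1 from −0.39 to 0.12, −0.83 to 0.35 and −0.44 to 0.15. HSPA8 ran from −0.0086 to 0.26 for estradiol alone, and HSPD1 from −1.20 to 0.24 for estradiol in co-culture and −1.21 to 0.23 for the interaction. The interaction of HSPH1 ran from −1.04 to 0.25 with 1 array left out, and was 0.23 with arrayWeights and 0.010 without both second co-culture arrays. The cause of these changes was not tested; 3 arrays a group limit the precision throughout.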
